A study of Mus musculus with 22 samples.

Results

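The AP-1 transcription factor family was followed in the epididymal white fat, the fat pad attached to the epididymis, of mice kept for 6 hours in air with 12% or 20.9% oxygen. Its 10 genes, Fos, Fosb, Fosl1, Fosl2, Jun, Junb, Jund, Atf3, Maff and Batf, were taken by their gene names on the array, out of 34741 gene names. Of these, 8 were tested among 16578 genes. Fosl1 and Junb stood too close to background for a test.

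The hypoxia group held 10 mice in air with 12% oxygen and the normoxia group 12 mice in air with 20.9% oxygen, and the exposure lasted 6 hours in a system that measures gas exchange. All mice were male C57BL/6JOlaHsd animals, an inbred laboratory strain, that arrived when 10 weeks old. All were housed singly and fasted before the exposure, after 3 weeks on purified feed in which fat gave 10% of the energy and 6 weeks on feed in which it gave 40%. The protocol also names low-fat feeding without saying which mice it concerns, so diet was not modelled. The RNA of each mouse carried the dye Cy5 and shared a 2-colour array with a Cy3-labelled pool of all samples. Values are log2 ratios of the mouse to that pool, and a difference is hypoxia minus normoxia on the log2 scale. Dyes were not swapped, so only differences between mice are compared, and a ratio below 0 does not by itself mean a low level.

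AP-1 is a dimer of basic leucine zipper (bZIP) proteins, classically a Fos protein with a Jun protein, that binds DNA and turns on genes of growth, matrix turnover, inflammation and stress. Fos, Fosb, Junb and Atf3 are immediate early genes: their transcripts appear within minutes of a stimulus because the factors that switch them on are already in the cell and only need to be phosphorylated by MAP kinases. Jund is made in most resting cells, and small members such as Batf and Maff have no activation domain of their own and act through their partners. In fat, members of the family are made by adipocytes and by resident immune and vessel cells.

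The bases just before the transcript start are shown for Fosl2 and Maff, which had the smallest p-values of the family. They are also shown for Fos and Atf3, which followed each other from mouse to mouse, and for Jun. In the setting reported, Jun ran against Maff and Batf. The sequences are RefSeq's for build GRCm38.p6, read 5′ to 3′ on the strand of the gene and ending at the base before the start. Capitals mark TGACG, the core of the cAMP response element, in Fos and Atf3. In Jun they mark TGACATCA, a variant AP-1 site, and in Maff the full cAMP response element TGACGTCA and GCGTG, the core that HIF complexes and other bHLH-PAS factors can bind. All motifs were sought on both strands, so that TGACG on the far strand appears as CGTCA.
Fosl2 (chr5:32136322-32136471, plus strand): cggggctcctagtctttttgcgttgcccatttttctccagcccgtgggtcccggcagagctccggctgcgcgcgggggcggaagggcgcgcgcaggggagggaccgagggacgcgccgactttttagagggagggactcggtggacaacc
Maff (chr15:79347370-79347519, plus strand): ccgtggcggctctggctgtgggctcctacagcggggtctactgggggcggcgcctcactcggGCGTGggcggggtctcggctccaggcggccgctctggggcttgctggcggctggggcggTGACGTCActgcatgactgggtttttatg
Fos (chr12:85473740-85473889, plus strand): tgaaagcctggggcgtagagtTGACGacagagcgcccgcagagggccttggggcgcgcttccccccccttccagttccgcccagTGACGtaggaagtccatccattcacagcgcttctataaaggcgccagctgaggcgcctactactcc
Atf3 (chr1:191183334-191183483, minus strand): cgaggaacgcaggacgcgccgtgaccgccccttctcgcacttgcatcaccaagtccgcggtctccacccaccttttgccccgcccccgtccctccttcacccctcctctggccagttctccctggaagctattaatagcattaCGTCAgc
Jun (chr4:95052223-95052372, minus strand): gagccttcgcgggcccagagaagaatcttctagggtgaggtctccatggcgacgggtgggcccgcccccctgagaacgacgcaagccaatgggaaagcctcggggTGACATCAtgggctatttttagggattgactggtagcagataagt

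Over the 250 bases before the start, 9 of the 10 members had at least 1 window in the table, 11 windows in all, since Maff has 3. The Maff window shown is the one of its 3 that holds TGACGTCA, which begins 29 bases before the start. That motif lay in 1 of the 11 windows, beside 1.55% of all 32851 windows. TGACG, which lies within TGACGTCA, was found in 7 of the 11 windows (6 members), beside 17.8% of all windows. In Fos it begins 129 and 66 bases before the start. TGACATCA was found in 2 of the 11 windows (Jun and Maff), beside 2.93% of all windows, and in Jun it begins 45 bases before the start. GCGTG was found in 4 of the 11 windows (4 members), beside 28.2% of all windows. The Fosl2 window holds none of the motifs searched. These also included TGANTCA (0 of the 11 windows, 6.75% of all windows), ACGTG (2 of 11, 16.6%) and the CArG box of serum response factor (0 of 11, 1.47%). Sites farther than 250 bases before the start were not searched, so a motif not found here may lie beyond. A match is a stretch of letters and says nothing of whether a factor sits there.

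No member passed the test for a difference between hypoxia and normoxia after Benjamini-Hochberg adjustment over all genes tested (limma, threshold 0.05), and neither did any other gene, so that 0% of genes were called. At an unadjusted p under 0.05, Fosl2 and Maff were higher in hypoxia and no member was lower. That is 2 of 8 tested members, beside 5.3% of all genes in either direction, 2.58% higher and 2.73% lower. The differences of 6 members lay above 0 and of 2 below, with a median of 0.14, beside 50.4% of all genes above 0 and a median of 0.001 over all genes. Without normoxia replicate 4 the median of the members was 0.079, and among the other arrays left out in turn its highest value was 0.18. In RNA of whole tissue, fewer cells of a type and less RNA per cell cannot be told apart.

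Among the Fos proteins, Fosl2 (also called Fra-2), a Fos protein that lacks the strong activation domain of Fos and is made later and for longer, had the smallest p of the family, rank 30 of the 16578 genes. In hypoxia mice its log2 ratio had a lowest value of 0.02, a median of 0.25 and a highest value of 0.56. In normoxia mice the lowest value was -0.29, the median -0.08 and the highest 0.42. The normoxia mean was below each of the 10 hypoxia mice, and 9 of the 12 normoxia mice lay below the lowest of them, but the groups overlapped because normoxia replicates 7, 9 and 12 reached 0.22, 0.42 and 0.07.

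Fosl2 averaged 0.28 ± 0.16 in hypoxia (SD, n = 10) and -0.03 ± 0.19 in normoxia (SD, n = 12), a difference of 0.31 ± 0.08 (SE; 95% interval 0.14 to 0.48) or 1.24-fold, with a limma p of 0.000742 and an adjusted p of 0.399. Its value varied little from mouse to mouse: the residual spread stood at the 14.8th percentile of all genes. On each of the 5 slides that carried both groups, the Fosl2 mean of the hypoxia mice was above that of the normoxia mice, by 0.11 to 0.53. Each slide held few mice of a group, and the share of all genes alike on every slide is not given. Slide 2, the other of the 6 slides, held normoxia replicates 9 and 10 alone, so slide and group were partly mixed. The deposited log ratio of the scanner software gave a larger Fosl2 difference, 0.53 with an unadjusted p of 0.000381. The deposited value table gave 0.25 with an unadjusted p of 0.238.

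The Fosl2 probe behind these values lies at chr5:32460076-32460135 of build mm9 and was well above background in Cy5 on 21 of 22 arrays. A second Fosl2 probe, at chr5:32455088-32455147, was well above background on only 5 arrays, was not tested, and differed by 0.02 between the groups. The exon or untranslated region under each probe is not given here, because no annotation of that build was used.

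Fos, the founding member and a partner of all Jun proteins, was also higher in hypoxia, but the interval of its difference reached 0. The hypoxia mice had a lowest log2 ratio of -0.36, a median of -0.01 and a highest value of 0.18. The normoxia mice had a lowest value of -0.78, a median of -0.24 and a highest value of 0.43. The groups overlapped: 8 of the 10 hypoxia mice lay above the normoxia mean, and the highest mouse of all was a normoxia mouse.

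Fos averaged -0.04 ± 0.17 in hypoxia (SD, n = 10) and -0.27 ± 0.35 in normoxia (SD, n = 12), a difference of 0.23 ± 0.11 (SE; 95% interval -0.004 to 0.47), with a limma p of 0.0539 and an adjusted p of 0.944. The Fos difference was above 0 on all 5 slides with both groups, from 0.11 to 0.49. Fos was well above background in Cy5 on 18 of 22 arrays, but on no array of slide 1, which gave the lowest value. The scanner software's log ratio gave a Fos difference of 0.48 (unadjusted p of 0.0474), while it was 0.24 (0.0688) in the deposited value table, 0.20 (0.0776) with scale normalization and 0.22 (0.0804) with slide as a fixed block. The Fos probe (chr12:86817900-86817959, mm9) sits in 10 spots of each array, which shows how well a single hybridisation measures it: the SD over the 10 spots of an array had a median of 0.167, against a residual SD between mice of 0.281 for the mean of the spots.

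Fosb, which pairs with Jun proteins as Fos does, did not differ beyond its error. Its log2 ratio ran from -0.26 through a median of -0.02 to 0.20 in hypoxia mice, and from -1.33 through a median of -0.08 to 0.50 in normoxia mice. The difference was 0.13 ± 0.14 (SE; limma p of 0.357, adjusted p of 0.984), and its 95% interval of -0.16 to 0.43 holds values of the size seen for Fosl2. Fosb was dim, with Cy5 well above background on 14 of 22 arrays, and without normoxia replicate 4, the mouse at -1.33, the difference was 0.027. Fosl1 (Fra-1), the other late Fos protein, was well above background on 0 of 22 arrays, so that no fold is given for it.

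**Figure D1:**
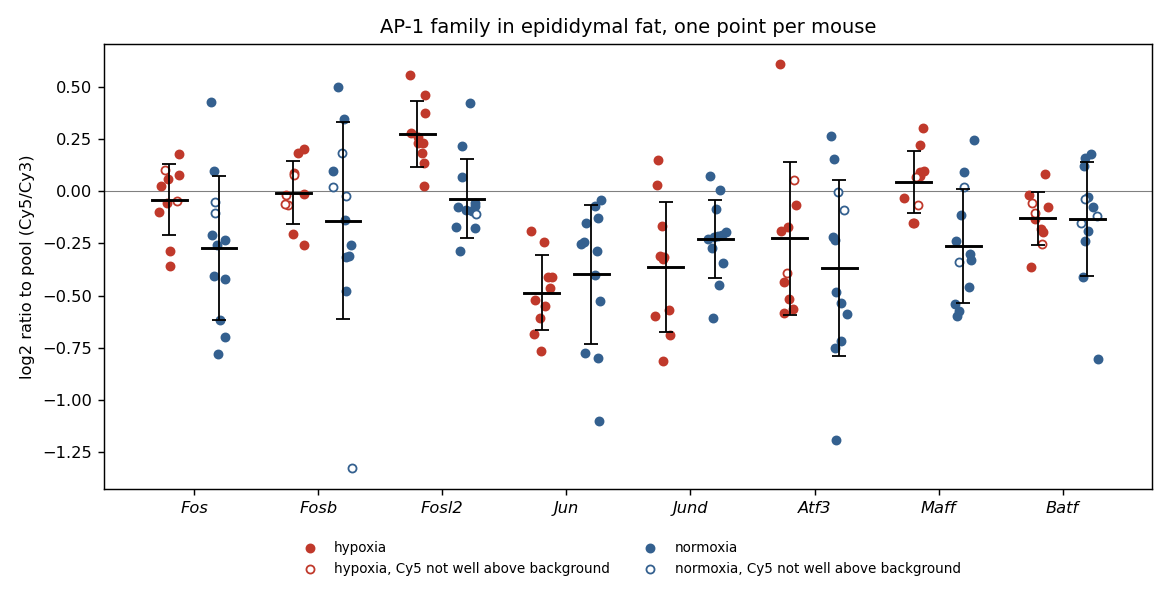
Log2 ratio to the pool (vertical axis) of the 8 tested members in each mouse, with hypoxia mice in red on the left and normoxia mice in blue on the right of each gene. Lines are group means, bars are 1 SD, and open points are arrays on which Cy5 was not well above background. Each of the 10 hypoxia mice exceeds the normoxia mean for Fosl2 and for Maff, and the share of all genes for which this holds is not given. The groups overlap for every member, as they do for all 16578 genes tested.

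The Jun proteins gave no difference beyond their error, and both that were tested pointed the other way from the Fos proteins. Jun, the strongest activator of the family and a target of JNK, had log2 ratios from -0.76 through a median of -0.49 to -0.19 in hypoxia mice, and from -1.10 through a median of -0.27 to -0.04 in normoxia mice. The Jun difference was -0.09 ± 0.11 (SE; 95% interval -0.32 to 0.15, limma p of 0.452, adjusted p of 0.989). The range of the hypoxia mice lay within that of the normoxia mice. The Jun difference ran from -0.15 without normoxia replicate 9 to -0.05 without normoxia replicate 2, and was -0.18 in the deposited value table.

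Jund, the Jun protein of resting cells, ran from -0.82 through a median of -0.32 to 0.15 in hypoxia mice, and from -0.61 through a median of -0.22 to 0.07 in normoxia mice. The Jund difference was -0.13 ± 0.10 (SE; 95% interval -0.35 to 0.08, limma p of 0.215, adjusted p of 0.980). It ran from -0.19 without hypoxia replicate 4 to -0.08 without hypoxia replicate 5, and was -0.07 in the scanner software's log ratio and -0.22 in the deposited value table. Within slides Jun was higher in hypoxia on 1 of 5 and Jund on 2 of 5. Jun and Jund were well above background on all 22 arrays. Junb, an immediate early Jun protein that can hold Jun back, was well above background on 3 of 22 arrays, 1 of hypoxia and 2 of normoxia, and was not tested.

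Maff, a small Maf protein that pairs with NF-E2-related and other bZIP factors, was the second member past an unadjusted 0.05. The hypoxia mice had log2 ratios from -0.15 through a median of 0.07 to 0.30. The normoxia mice had ratios from -0.60 through a median of -0.32 to 0.25. Each of the 10 hypoxia mice exceeded the normoxia mean, and 8 of the 12 normoxia mice lay below the lowest hypoxia mouse, with normoxia replicates 3, 7, 9 and 10 inside the hypoxia range.

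Maff averaged 0.05 ± 0.15 in hypoxia (SD, n = 10) and -0.26 ± 0.27 in normoxia (SD, n = 12), a difference of 0.31 ± 0.10 (SE; 95% interval 0.11 to 0.51) or 1.24-fold, with a limma p of 0.00377 and an adjusted p of 0.683. The Maff difference was above 0 on all 5 slides with both groups, from 0.16 to 0.55. The Maff probe (chr15:79189442-79189501, mm9) was well above background on 18 of 22 arrays, but on no array of slide 1, which gave the lowest value. The scanner software's log ratio gave 0.49 for Maff with an unadjusted p of 0.0643, and the deposited value table gave 0.27 with 0.0880.

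Atf3, a stress-induced factor that binds cAMP response elements and often represses, spread more widely between mice than 93.6% of all genes. Its log2 ratio ran from -0.58 through a median of -0.29 to 0.61 in hypoxia mice, and from -1.20 through a median of -0.36 to 0.27 in normoxia mice. The Atf3 difference was 0.14 ± 0.16 (SE; 95% interval -0.18 to 0.46, limma p of 0.374, adjusted p of 0.985). Hypoxia replicate 2 carried much of it: without that mouse the difference was 0.048.

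Batf, a short bZIP protein of lymphoid and myeloid cells that competes with Fos for Jun partners, was centred alike in both groups. Its log2 ratio ran from -0.36 through a median of -0.12 to 0.09 in hypoxia mice, and from -0.80 through a median of -0.10 to 0.18 in normoxia mice. The Batf difference was 0.003 ± 0.09 (SE; 95% interval -0.19 to 0.20, limma p of 0.971, adjusted p of 0.998), and its sign turned under other settings.

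**Figure D2:**
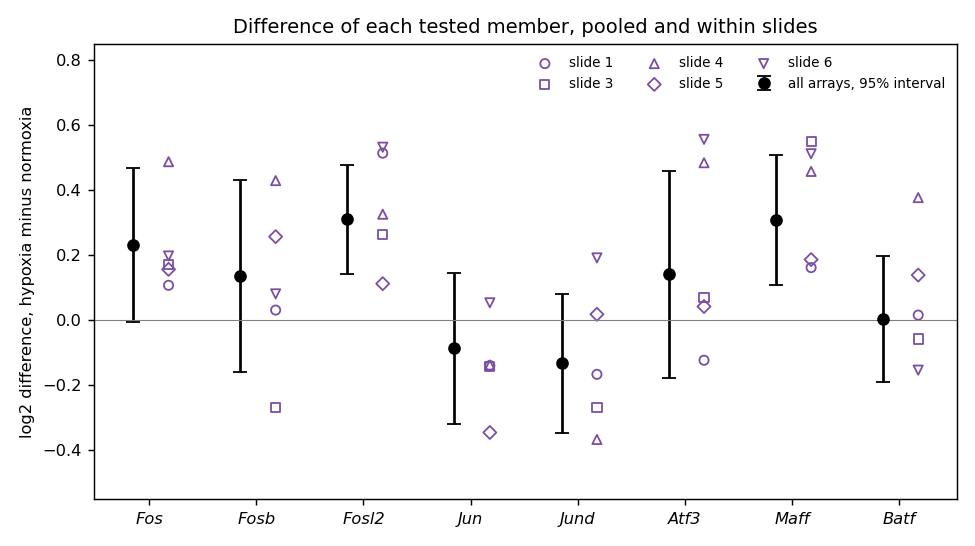
Difference of hypoxia minus normoxia (log2, vertical axis) for each tested member, with black points and 95% intervals from all arrays and open symbols for the 5 slides that carry both groups. The 5 slide values lie above 0 for Fos, Fosl2 and Maff and on both sides of 0 for the other 5 members. Each slide held few mice of a group, and the share of all genes with every slide value above 0 is not given. No array of slide 1 had Fos or Maff well above background in Cy5.

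The spread between mice was smaller in hypoxia for 7 of the 8 tested members, all but Jund. For Fos the SD was 0.17 in hypoxia and 0.35 in normoxia, and for Fosb it was 0.15 in hypoxia and 0.47 in normoxia. Without normoxia replicate 4, where Fosb was not well above background, the Fosb SD in normoxia was 0.302. This was common on these arrays: of the 16483 genes with a value on every array, 68.0% had the smaller SD in hypoxia, and the median SD over genes was 0.204 in hypoxia and 0.243 in normoxia.

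The members were next compared from mouse to mouse with the group means removed, which asks whether mice high in one member were high in another at the same oxygen level. Among the 28 pairs of tested members, 6 had a Pearson correlation past an adjusted 0.05 (permutation within groups, 100000 resamples, two-sided), 4 positive and 2 negative. Spearman's rho passed for 2 of these, Fos with Atf3 and Jun with Batf. All values of an array share its hybridisation and normalization.

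Fos and Atf3 followed each other most closely over the 22 mice, with r of 0.69 and rho of 0.72 (permutation p of 0.00067 and 0.00052, adjusted 0.0182 and 0.0077). Without the 2 mice farthest from the median of Fos, r was 0.53, and with slide means removed it was 0.77. It was 0.57 among the hypoxia mice and 0.77 among the normoxia mice. Both genes also ran against the share of spots above background, as given with the markers. This pair kept an adjusted p under 0.05 in each of 6 other settings and with each of the 22 arrays left out.

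The 2 members past an unadjusted 0.05, Fosl2 and Maff, also followed each other within groups, with r of 0.66 and rho of 0.47 (permutation p of 0.0013 and 0.0320, adjusted 0.0182 and 0.0997). Their r was 0.59 with slide means removed and 0.55 without the 2 mice farthest from the median of Fosl2. Normoxia replicate 9 was high in both genes: without it r was 0.50 (adjusted p of 0.0881, permutation). In the scanner software's log ratio r was 0.03.

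Atf3 also ran with Maff (r of 0.62, rho of 0.60, permutation p of 0.00326 and 0.00599, adjusted 0.0304 and 0.0559) and with Batf (r of 0.58, rho of 0.49, permutation p of 0.00642 and 0.0269, adjusted 0.0350 and 0.0997). Without the 2 mice farthest from the median of Atf3 these were 0.69 with Maff and 0.55 with Batf. With slide means removed they were 0.64 with Maff and 0.41 with Batf. Among the hypoxia mice alone r was 0.16 with Maff and 0.20 with Batf, and among the normoxia mice alone it was 0.82 with Maff and 0.73 with Batf, a difference between the groups that was not tested. In the scanner software's log ratio these were 0.32 with Maff (adjusted p of 0.399, permutation) and 0.27 with Batf (0.540). Without normoxia replicate 6, Atf3 and Batf had r of 0.38 (adjusted p of 0.250, permutation).

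Jun ran against Maff (r of -0.64, rho of -0.54, permutation p of 0.00461 and 0.0161, adjusted 0.0323 and 0.0899) and against Batf (r of -0.63, rho of -0.71, permutation p of 0.00751 and 0.00055, adjusted 0.0350 and 0.0077). Without the 2 mice farthest from the median of Jun these were -0.39 with Maff and -0.58 with Batf, and with slide means removed they were -0.61 with Maff and -0.50 with Batf. The direction for Jun and Maff differed by the source of the values: in the deposited value table their r was 0.59. That table holds levels and not ratios to the pool, and its normalization is not given. The cause of the change of sign was not tested. Jun with Batf kept its call in 2 of 6 other settings, where r ran from -0.74 to -0.29. With the 22 arrays left out in turn, it kept its call 15 times. Of these 6 pairs, Fos with Atf3 alone kept its call under every setting tried.

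**Figure D3:**
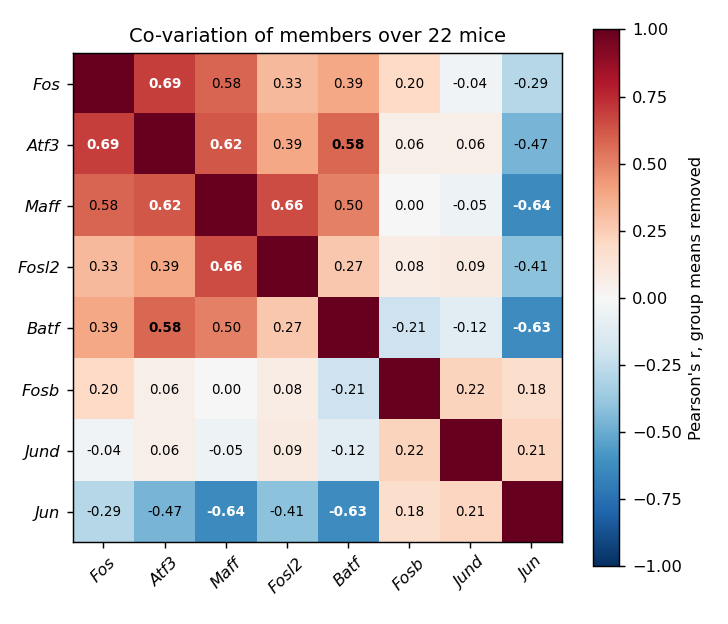
Pearson's r between each pair of the 8 tested members over 22 mice, group means removed (colour scale from -1 to 1; both axes list the genes). Bold values are the 6 pairs with an adjusted p under 0.05, and Fos with Atf3 has the highest r, 0.69.

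The genes closest to each member over the 22 arrays were named by the same group-centred r, given here as a description. Those of Atf3 were Atp6v0d2, a subunit of the vacuolar proton pump (r of 0.86), Cd44, the hyaluronan receptor (0.86), and Lilr4b, an inhibitory receptor of myeloid cells (0.86). Those of Maff were Il7r, the interleukin-7 receptor (0.81), Ehd4, an endosome protein (0.80), and Pradc1 (0.79). Those of Batf were Znf41-ps (0.87), Cenpo, a kinetochore protein (0.87), and Gpr132, a receptor of immune cells (0.85).

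Those of Fos were Gm9222 (0.73), Rasa2, a Ras inhibitor (0.73), and Slc35e2 (0.72), so that Atf3 with 0.69 was nearly as close. Those of Fosl2 were 2700062C07Rik (0.82), Zfp758 (0.81) and Cdnf, a secreted neurotrophic factor (0.80). Those of Jun were Zfp442 (0.86), Rpl36a, a ribosomal protein (0.84), and Cbr3, a carbonyl reductase (0.83). Those of Jund were Sf3b4, a splicing factor (0.84), Pcdhga9, a protocadherin (0.83), and Tspyl2 (0.80), and those of Fosb were Zfp422 (0.60), Gtpbp10 (0.57) and AI662270 (0.56).

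Cell type markers were set beside the members in the same way. The 8 adipocyte markers were well above background on all 22 arrays. Atf3 followed the mean of the 8 macrophage markers with r of 0.64 and rho of 0.50 (permutation p of 0.0018 and 0.0207, adjusted over 96 relations 0.173 and 0.331), 0.46 without the 2 arrays farthest from the median of the markers, and 0.62 with slide means removed. For Maff and these markers r was 0.58 and rho 0.58 (permutation p of 0.00425 and 0.00549, adjusted 0.204 and 0.209), 0.48 without the 2 farthest arrays and 0.67 with slide means removed. For Batf and the macrophage markers r was 0.51 and rho 0.55 (permutation p of 0.0133 and 0.0101, adjusted 0.386 and 0.209). It was 0.51 without the 2 farthest arrays and 0.28 with slide means removed. Jun ran against these markers, with r of -0.44 and rho of -0.47 (permutation p of 0.0380 and 0.0304, adjusted 0.386 and 0.365). That r was -0.25 without the 2 farthest arrays and -0.44 with slide means removed. The share of spots well above background, a measure of array quality, ran against both genes of the closest pair. For Atf3 and this share r was -0.49 and rho -0.58 (permutation p of 0.0244 and 0.00707, adjusted 0.386 and 0.209), -0.29 without the 2 farthest arrays and -0.49 with slide means removed. For Fos r was -0.44 and rho -0.57 (permutation p of 0.0333 and 0.00736, adjusted 0.386 and 0.209), -0.46 without the 2 farthest arrays and -0.38 with slide means removed. For Batf r was -0.47 and rho -0.29 (permutation p of 0.0216 and 0.193, adjusted 0.386 and 0.512), -0.07 without the 2 farthest arrays and -0.75 with slide means removed. Other lists had relations of like size to that of Jun. Batf ran against the smooth muscle markers (r of -0.52, permutation p of 0.0270) and Jund against the adipocyte markers (-0.45, 0.0285). Maff ran against the sperm markers (-0.48, 0.0469) and Atf3 against the mesothelial markers (-0.44, 0.0404). Jun ran against the endothelial markers (rho of -0.55, permutation p of 0.0109, adjusted 0.209). None of the 96 relations of the 8 members with 11 marker lists and the share of spots above background passed after adjustment. The macrophage markers differed by a median of 0.10 between the groups (6 of 8 higher in hypoxia). Their mean level, each marker taken less its mean over all mice, overlapped, at -0.22 to 0.33 in hypoxia and -0.25 to 0.25 in normoxia mice. The part of these markers and of array quality in the values of the members was not tested.

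**Figure D4:**
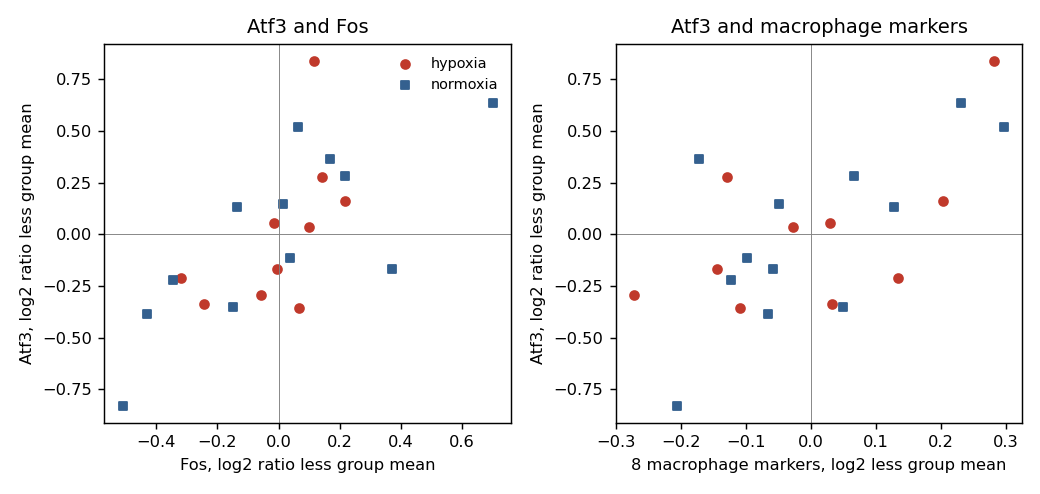
Atf3 (vertical axes, log2 ratio less the group mean) against Fos on the left and against the mean of 8 macrophage markers on the right, with hypoxia mice as red circles and normoxia mice as blue squares. Points run from lower left to upper right in both panels, with r of 0.69 for Fos and 0.64 for the macrophage markers. The relation with the macrophage markers did not pass after adjustment (permutation, adjusted p of 0.173).

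The pathway around AP-1 was described with 6 lists of genes. None of their genes passed the adjusted threshold in limma. Their medians depended on the source of the values: in the deposited value table, where the median of all genes was -0.04, they were -0.08 for the MAP kinases, -0.03 for the inducing factors, -0.01 for the other bZIP factors, 0.01 for the feedback regulators, 0.04 for the AP-1 targets and 0.12 for the other immediate early genes. The tested transcripts of kinases that act on the family were centred on 0: of 18 MAP kinases and their partners, 9 were higher and 9 lower, with a median difference of -0.001. Mapk8, Mapk10 and Map2k7 of the JNK cascade and Rps6ka5 were not tested. Phosphorylation and kinase activity were not measured. Only Map2k1 (MEK1, the ERK kinase) passed an unadjusted 0.05, with log2 ratios from -0.23 through -0.07 to 0.09 in hypoxia mice and from -0.63 through -0.44 to 0.55 in normoxia mice. Its difference was 0.24 ± 0.10 (SE; limma p of 0.0280, adjusted 0.873). Mapk14 (p38α) and Mapk12 (p38γ) were next by p, with differences of -0.18 and -0.11.

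The transcription factors that switch members on lay close to 0 too. Of 10 tested, 7 were higher and 3 lower, with a median of 0.04 and none past an unadjusted 0.05 (limma). The 3 with the smallest p were Mrtfa (-0.12) and Mrtfb (0.09), actin-regulated partners of serum response factor, and Mef2c (0.11). Without hypoxia replicate 10 the Mef2c difference was 0.027, and without normoxia replicate 9 the Mrtfb difference was 0.042. Mrtfa had a second tested probe that differed by 0.009.

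Other bZIP factors that can pair with the family had a median difference of 0.06 over 22 tested, 15 higher and 7 lower, with 2 past an unadjusted 0.05, both higher. Cebpd, a C/EBP factor of stress and early adipogenesis, had log2 ratios from -1.07 through a median of -0.01 to 0.18 in hypoxia mice and from -1.17 through a median of -0.64 to -0.26 in normoxia mice. Its difference was 0.53 ± 0.14 (SE; limma p of 0.000715, adjusted 0.399), and 9 of 10 hypoxia mice lay above the normoxia mean. Of the small Maf proteins other than Maff, Mafk was higher by 0.21 ± 0.08 (SE; p of 0.0185, adjusted 0.865), and Mafg differed by -0.19 ± 0.11 (p of 0.0892, adjusted 0.952), while 3 other tested Mafg probes differed by 0.03 to 0.05.

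Regulators that shut the pathway down had a median of 0.10 over 16 tested, 12 higher and 4 lower, with 3 past an unadjusted 0.05, all higher. Without normoxia replicate 6 the median was 0.049. Dusp1, the phosphatase that removes the activating phosphates of p38 and JNK and is itself an early gene, had log2 ratios from 0.07 through 0.47 to 1.26 in hypoxia mice and from -0.42 through 0.11 to 0.69 in normoxia mice. Its difference was 0.36 ± 0.14 (SE; limma p of 0.0132, adjusted 0.830). Dusp2, a phosphatase of ERK and p38, was higher by 0.26 (p of 0.0202, adjusted 0.865) and Spry4, an inhibitor of receptor kinase signals, by 0.25 (p of 0.0316, adjusted 0.890).

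Genes known as AP-1 targets had a median of 0.10 over 18 tested of 25, 15 higher and 3 lower, with 3 past an unadjusted 0.05. Hbegf, a growth factor that binds the EGF receptor, had log2 ratios from -0.38 through a median of 0.23 to 0.55 in hypoxia mice and from -0.70 through a median of -0.15 to 0.24 in normoxia mice. It was higher by 0.29 ± 0.12 (SE; limma p of 0.0218, adjusted 0.865), and Hmox1, the haem-degrading enzyme, by 0.22 ± 0.11 (p of 0.0486, adjusted 0.938).

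Of the immediate early genes outside the family, 16 of 17 tested were higher in hypoxia and 1 (Ier5) lower, with a median of 0.20, and 7 passed an unadjusted 0.05, all higher. Csrnp1, a nuclear protein of the early response, had the smallest p: its log2 ratio ran from -0.03 through 0.12 to 0.25 in hypoxia mice and from -0.52 through -0.19 to 0.09 in normoxia mice. Its difference was 0.31 ± 0.07 (SE; limma p of 0.000240, adjusted 0.265), close in size to those of Fosl2 and Maff. Errfi1, a feedback inhibitor of the EGF receptor, was higher by 0.51 ± 0.13 (p of 0.000429, adjusted 0.339), and Ccn2, a matrix protein induced by stretch and TGF-beta, by 0.60 ± 0.18 (p of 0.00229, adjusted 0.544). For Csrnp1 the normoxia mean was below each of the 10 hypoxia mice, and for Errfi1 and for Ccn2 below 9 of 10. Markers of smooth muscle (4 of 4, median 0.41) and of red blood cells (3 of 3, median 0.43) were also higher in hypoxia. The mean level of the smooth muscle markers, taken as for the macrophage markers, ran from -0.40 to 0.68 in hypoxia and from -0.94 to 0.81 in normoxia mice. That of the red cell markers ran from -0.33 to 1.02 in hypoxia and from -0.84 to 0.52 in normoxia mice. The part of both lists in these values was not tested. Of the other marker lists, mesothelial markers were higher in 6 of 6 (median 0.19, mean level -0.47 to 0.90 in hypoxia and -0.49 to 0.42 in normoxia mice). Mast cell markers were higher in 4 of 4 (median 0.16, mean level -0.10 to 0.36 in hypoxia and -0.35 to 0.26 in normoxia mice). Sperm markers were lower in 4 of 4 (median -0.53, mean level -1.30 to 1.69 in hypoxia and -1.60 to 3.26 in normoxia mice). The part of these lists was not tested either.

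**Figure D5:**
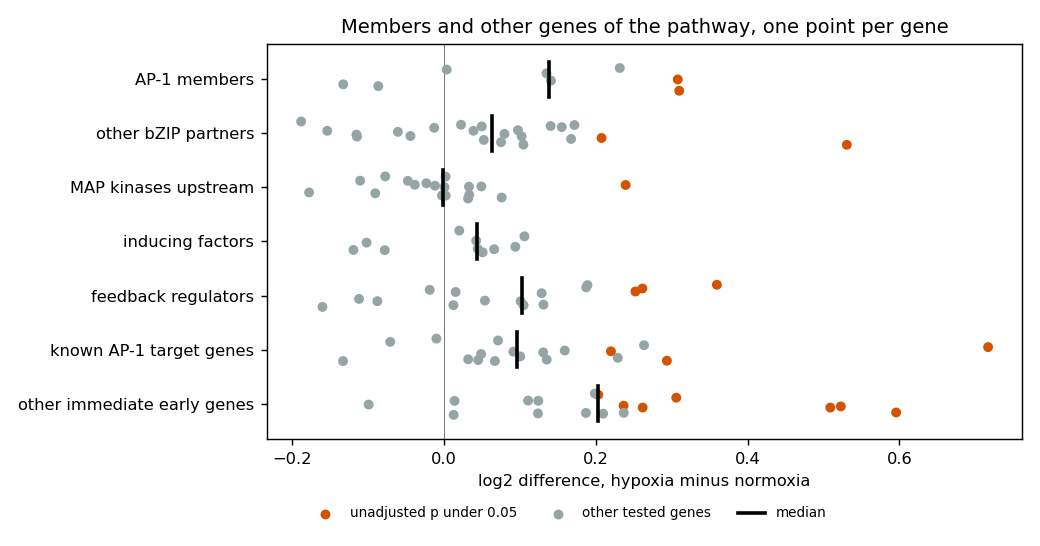
Differences of hypoxia minus normoxia (log2, horizontal axis) of each tested gene of the family and of 6 lists around it, with orange points for an unadjusted p under 0.05 and a black line at each median. The median is 0.14 for the family, -0.001 for the MAP kinases and 0.20 for the other immediate early genes.

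The arrays differed in quality. The median Cy5 signal of an array lay between 35.1 and 108.1 intensity units, over backgrounds of about 29 to 33, and 15.6% to 76.8% of spots were well above background. The dimmest 4 were those of slide 1, which held hypoxia replicates 5 and 7 beside normoxia replicates 3 and 5. Without them Fosl2 differed by 0.26 (unadjusted p of 0.00830, limma), Maff by 0.34 (0.00594) and Fos by 0.25 (0.0706).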

How the data were processed

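Each of 22 mice has a 2-colour array file of deposited intensity values. Per the file headers, the scanner software was Agilent Feature Extraction, version 10.7.3.1. The log10 ratio in the same deposited files carries that software's own background and dye correction, and the deposited value table holds log2 levels with equal medians (6.30) whose normalization the sources used here do not give. Background was corrected with normexp (offset 50) and each array normalized by loess in limma 3.58.1 under R 4.3.3, with control spots at weight 0 and outlier-flagged spots left out. Repeated spots were averaged per probe. The test took in probes with Cy5 signal well above background on 10 or more arrays and 2 or more values per group, and the brightest tested probe stood for a gene. Group was the only term (lmFit, eBayes), with Benjamini-Hochberg adjustment. Names follow RefSeq GRCm38.p6, which named 27235 probes by accession, 3581 by symbol and 565 by synonym, while 24300 kept the file's name. The fit was tested on simulated data. It recovered 15 of 50 genes changed by 0.3 on the log2 scale, a size close to the differences of Fosl2 and Maff. At a change of 0.5 it recovered 38 of 50, and at 1 it recovered 50 of 50.

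The members and lists were chosen with earlier results of these data known. All members are named, the 3 genes closest to each tested member by group-centred correlation, and from each list the 3 genes with the smallest p where none passed. A gene that this rule selects from the list of AP-1 targets is not reported here. The relations with marker lists and with the share of spots above background were chosen after seeing the data. The series text calls the mice biological replicates. Precision is limited by their number, and a difference had a median standard error of 0.098.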

Additional observations from a re-analysis of the deposited data

Results flagged for a closer look

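In 37 values searched over the 10 hypoxia mice, 4 had a mouse set apart from the rest, where chance gives about 1.85. Atf3 in hypoxia replicate 2 had a log2 ratio of 0.611, while the other hypoxia mice lay between -0.58 and 0.05. Mef2c, a factor that acts on the Jun promoter, was at 0.911 in hypoxia replicate 10, with the others between -0.05 and 0.31. The centred score of neutrophil markers was 0.686 in hypoxia replicate 6, with the others between -0.37 and 0.17. The centred score of sperm markers was 1.95 in hypoxia replicate 10, with the others between -1.04 and 0.55.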

How the results depend on the processing

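None of the 8 tested members was called under any of 14 other settings or with any of the 22 arrays left out, and the median difference of the members stayed between 0.12 and 0.19 under the other settings (0.079 without normoxia replicate 4 to 0.18 without normoxia replicate 7). Over all genes, 1 gene was called with the scanner software's log ratio, 1 with scale normalization, 2 with slide as a fixed block, 1 with slide as a random block and 2 without the dimmest slide. With an array left out the count ran from 0 to 3 (3 without hypoxia replicate 7 and 1 without normoxia replicate 4, normoxia replicate 8 or hypoxia replicate 4). Batf turned to -0.00184 with the scanner software's log ratio, -0.0257 with scale normalization, -0.0203 in the deposited value table, -0.00870 with flagged spots kept, -0.00148 without the dimmest slide and -0.0132 with the replicate block, and ran from -0.0575 to 0.0318 with an array left out. The cause was not tested. The count of correlated pairs, 6 in the setting reported, was 2 with the scanner software's log ratio (1 of them among those 6), 2 without the dimmest slide (both among the 6) and 9 in the deposited value table (4 among the 6, 3 with the same sign). With an array left out it ran from 1 (without normoxia replicate 9) to 7 (without normoxia replicate 12 or hypoxia replicate 1). It was 3 without normoxia replicate 2 or hypoxia replicate 10, and 2 without normoxia replicate 3 or 11. The r of Jun and Maff was 0.587 in the deposited value table. Fos with Atf3 ran from 0.54 to 0.77 under the 6 other settings. The replicate numbers did not pair the mice (correlations of 10 same-numbered pairs from -0.47 to 0.25, median -0.23, and 0 mice closest to their own number). With the replicate block, 0 members and 0 genes were called, and the median of the members was 0.14. Dim signal limits Fosb, Fosl1, Junb and the second Fosl2 probe most. Batf was well above background in Cy5 on 16 of 22 arrays, and Fos, Atf3 and Maff on 18 each. Their other arrays were kept in the differences and correlations.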
